A study of Mus musculus with 42 samples.

Results

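The genes described here are a set of nuclear-encoded subunits of the mitochondrial respiratory chain and of ATP synthase in mouse brain and spinal cord. They were taken by gene name from 3 expression tables of 20661 genes each: every Nduf subunit gene, Sdha to Sdhd, every Uqcr gene, the Cox4 to Cox8 genes and every Atp5 gene, with the Ndufaf assembly factors left out. The rule gave 85 genes, of which 36 belong to complex I, 4 to complex II, 8 to complex III, 17 to complex IV and 15 to complex V. Another 5 match by name and were kept apart. They are Ndufa4, which is now placed with complex IV, and its paralog Ndufa4l2, Cox7a2l (a factor of respiratory supercomplexes), and Atp5s and Atp5sl, which are not subunits. Counts and sums over all subunit genes hold these 5, as the rule took them, and those by complex do not. Subunits encoded by mitochondrial DNA were not analysed here.

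Complexes I to IV pass electrons from NADH and succinate to oxygen. Complexes I, III and IV, but not II, pump protons out of the mitochondrial matrix. Complex V, the ATP synthase, uses the returning protons to make ATP. Complex I has a small set of catalytic core subunits with the flavin and iron-sulfur clusters, and many supernumerary subunits around them. Complexes III and IV have catalytic centres built on mitochondrially encoded cytochromes, so that most of their nuclear subunits surround the centre, and several complex IV subunits exist as paired isoforms with a heart and muscle form.

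The first table covered RNA attached to ribosomes and purified by immunoprecipitation (TRAP), with mature oligodendrocytes, the myelin-forming glia, given as the cell type. Of its 24 libraries, 7 were of frontal cortex, 6 of subcortical white matter, 6 of cerebellum and 5 of spinal cord. Their strain, age, genotype and the driver of the ribosome tag are not given in the sources used here. The second held 6 bulk libraries of frontal cortex with titles of 8 months, 3 negative and 3 positive for rTg4510, a line that carries a mutant human tau transgene under a forebrain neuronal driver. The third held 12 bulk libraries of prefrontal cortex from mice null or heterozygous for the microRNA miR-142, or wild type by title, with 4 libraries each and no age given. Whether the libraries of a group come from separate animals is not stated, so the p-values rest on a spread that may be technical. Titles of TRAP libraries share replicate numbers across regions, and the main fit took these libraries as unpaired. The series title names oligodendrocyte co-expression, miR-142-3p and tauopathy.

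All values are RPKM (reads scaled to the length of the gene and the size of the library). Whole reads could be recovered from them, and gave depths of 3262439 to 36785943 reads for TRAP libraries and of 13868316 to 31801328 reads for bulk libraries. The lengths recovered with them were coding lengths, from 156 to 2181 nt for the subunit genes (median 417 nt), against a median of 1404 nt for the genes tested in TRAP. Cox8c was listed at 0 in every library. After a filter on low values 83 subunit genes were tested in TRAP (not Cox7b2 or Cox8c) and 84 in each bulk table (not Cox8c). Oligodendrocyte marker genes summed to 6620 to 12906 RPKM in cortex TRAP and to 32004 to 60594 RPKM in spinal cord TRAP, against 1264 to 6682 RPKM in bulk tissue, and neuronal markers were also high in every TRAP library (4033 to 12322 RPKM). The share of reads that fell on the subunit genes was 0.364% to 0.708% in cortex TRAP, 0.405% to 0.687% in white matter TRAP and 0.469% to 0.820% in cerebellum TRAP. It was 0.704% to 1.48% in spinal cord TRAP and 0.718% to 1.02% in bulk tissue.

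One library stood apart. Spinal cord replicate 7, the shallowest at 3262439 reads, held 3828 RPKM of Fabp4, a fatty acid carrier of fat cells, where no other TRAP library exceeded 12.4 RPKM. It held 276 RPKM of Ucp1, the proton leak channel of brown fat, against at most 1.22 RPKM elsewhere in TRAP. Together 8 fat cell genes, a list drawn up after these values were seen, summed there to 4958 RPKM and to no more than 18.1 RPKM in the other 23 TRAP libraries. Skeletal muscle markers summed to 0.3 RPKM in it. They summed to 19.8 and 21.9 RPKM in spinal cord replicates 4 and 5, and to no more than 6.06 RPKM in any other TRAP library. Spinal cord replicate 7 had the highest summed level of the subunit genes of all TRAP libraries, so spinal cord results are given with and without it. Cortex replicate 7 was the other high library, with a summed level of 12342 RPKM against 4718 to 6758 RPKM in the other 6 cortex libraries, and with the highest neuronal marker sum.

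By summed RPKM the regional difference was concentrated in spinal cord. By share of reads, which is not scaled to gene length, spinal cord without replicate 7 (0.704% to 0.815%) lay within the cerebellum range (0.469% to 0.820%). Summed over the subunit genes, the level was lowest in cortex with 6782 ± 2565 RPKM (SD, n = 7). White matter followed with 7861 ± 1679 RPKM (n = 6), then cerebellum with 9501 ± 939 RPKM (n = 6), and these 3 neighbouring ranges overlapped. The spinal cord libraries (replicates 3, 4, 5, 7 and 8, the order kept below) summed to 15982, 17064, 15473, 27184 and 14801 RPKM. Each was above every library of the other regions, and without replicate 7 the mean was 15830 ± 954 RPKM (n = 4). By complex, and without replicate 7, spinal cord had 4305 ± 177 RPKM of complex I against 1592 ± 659 RPKM in cortex. Complex III had 2559 ± 242 against 706 ± 330 RPKM and complex IV 3847 ± 109 against 1338 ± 638 RPKM. For complex II the levels were 873 ± 181 and 420 ± 91.2 RPKM, and for complex V 3253 ± 235 and 2351 ± 684 RPKM. By these sums complex V differed least, and its spinal cord mean without replicate 7 was below that of cerebellum (3428 ± 583 RPKM). Atp5b alone gave 958 of the 2351 RPKM in cortex. By the mean of log2(RPKM + 0.5) over its 15 genes, where each gene counts alike, complex V read 7.22 to 7.40 in the spinal cord libraries other than replicate 7, against means of 6.26 in cortex and 6.88 in cerebellum.

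**Figure D1:**
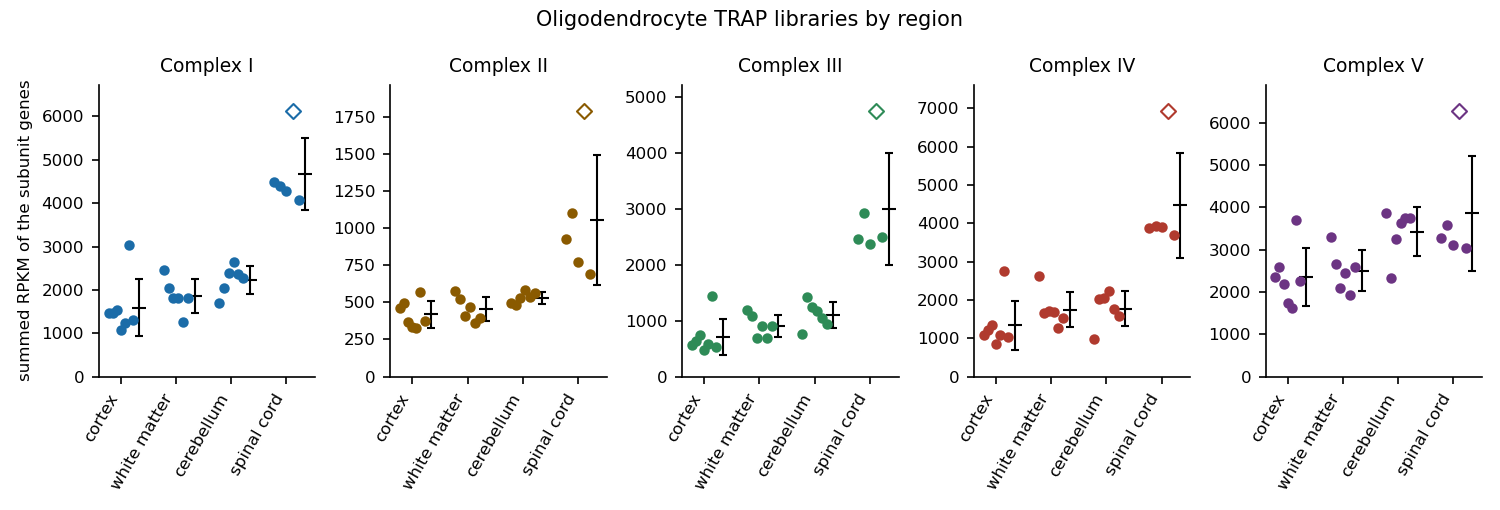
Summed RPKM of the subunit genes of each complex in each TRAP library, by region; points are libraries, bars the mean ± SD, and the open diamond is spinal cord replicate 7. The spinal cord libraries lie highest for complexes I to IV, with replicate 7 above the other 4, whereas the regions overlap for complex V.

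In a fit over all genes (limma on log2(RPKM + 0.5), Benjamini-Hochberg adjustment, threshold 0.05), 54 of 83 subunit genes differed between regions, against 47.1% of all genes tested. Between spinal cord and cortex, 58 subunit genes were higher in spinal cord and 1 was lower, with a median log2 difference of 1.43. Of all genes tested, 43.7% were called (16.2% higher and 27.5% lower) and the median was -0.33. For 28 of the 83, all higher, the 2 groups did not overlap, against 6.75% of all genes higher without overlap. Against white matter 44 were higher and 2 lower (median 1.07), with 27.7% of all genes called, 8.97% higher and 18.7% lower. Against cerebellum 37 were higher and 3 lower (median 0.84), with 22.6% called, 7.57% higher. In each of these 2 comparisons 31 subunit genes were higher without overlap, against 3.48% and 4.06% of all genes. These 3 comparisons share the spinal cord libraries. Rescaling moved the median of all genes between spinal cord and cortex to -0.19 (median of ratios) and 0.02 (quantile), with 64 and 54 subunit genes higher and medians of 1.59 and 1.35.

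Without replicate 7, 52 subunit genes were higher and 6 lower than in cortex (median 1.23), where 43.4% of all genes were called, 16.3% higher. Of the 58 calls, 51 remained, and Atp5a1, Atp5d, Cox6a1, Cox7a1, Cox7b, Cox8b and Ndufab1 were lost. Newly called as lower were Ndufs1, Uqcrc1, Uqcrc2, Cox6a2 and Atp5s. Of the genes kept apart, Ndufa4 and Cox7a2l are among the 58, and Atp5s is among the 6. Against white matter the counts became 36 and 3 (28.5% of all genes called), and against cerebellum 32 and 8 (22.8%). Without cortex replicate 7, 64 were higher and 1 lower than in cortex.

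Complex I accounted for 25 of the 58 genes higher than in cortex, and none of its 36 genes was lower. The supernumerary subunits made up 23 of these, out of 29 (median log2 difference 1.56). Of the 7 core subunits, which carry the redox centres, 2 were higher. These 7 have coding lengths of 636 to 2181 nt, and the relation to length is described below. Without replicate 7 the counts were 22 of 29 supernumerary subunits higher, and 2 core subunits higher with 1 lower.

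The largest difference was in Ndufa3, a supernumerary subunit (chromosome 7, 3617373 to 3620327, plus strand, GRCm38). Its level was 9.63, 13 and 55.8 RPKM at the lowest, median and highest cortex library, and 130, 164, 291, 444 and 193 RPKM in spinal cord. The groups did not overlap, and the log2 difference was 3.77 ± 0.39 (SE, adjusted p = 1.7e-08), or 3.52 without replicate 7. White matter (25.8 to 53.1 RPKM) and cerebellum (14.2 to 70.8 RPKM) also lay below every spinal cord library. Ndufa5, of the peripheral arm, ranged from 8.37 to 39.9 RPKM in cortex (median 17.4 RPKM), and read 167, 277, 105, 240 and 133 RPKM in spinal cord. Its log2 difference was 3.38 ± 0.36 (adjusted p = 3.25e-08). Ndufb3, of the membrane arm, ranged from 14.9 to 73.1 RPKM in cortex (median 19.9 RPKM) and read 253, 193, 231, 317 and 224 RPKM in spinal cord. Both genes separated the regions fully, and Ndufb3 varied little among the 5 spinal cord libraries. Ndufb7 (log2 difference 3.11 ± 0.39), Ndufa2 (2.90 ± 0.38) and Ndufs6 (2.56 ± 0.30) followed.

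Among core subunits, Ndufs7, which holds the last iron-sulfur cluster before ubiquinone, was higher. It ranged from 29.9 to 66.9 RPKM in cortex (median 32.4 RPKM) and read 131, 123, 181, 120 and 118 RPKM in spinal cord, with no overlap and a log2 difference of 1.82 ± 0.27 (adjusted p = 5.12e-06; 1.86 without replicate 7). Ndufv2, a partner of the flavin subunit, was the other core gene called, at 1.48 ± 0.30. Ndufs1, the largest iron-sulfur subunit, ranged from 52.3 to 87.5 RPKM in cortex and read 48.1, 16.9, 49.6, 122 and 46.3 RPKM in spinal cord. All spinal cord values but that of replicate 7 were below the cortex range. The log2 difference of -0.52 ± 0.32 did not pass the test (adjusted p = 0.197), and without replicate 7 it was -0.86 (adjusted p = 0.0199). Ndufs3 (0.76), Ndufs8 (-0.33) and Ndufv1 (-0.28) did not pass the test. With the length trend described below removed, Ndufs3 passed it (0.82, adjusted p = 0.0457). Ndufs1 and Ndufv1 then read 0.07 and 0.17, and Ndufs8 -0.43, none past the test. Ndufs5, a supernumerary subunit, read no more than 1.96 RPKM in any cortex or spinal cord library, far below Ndufs6.

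**Figure D2:**
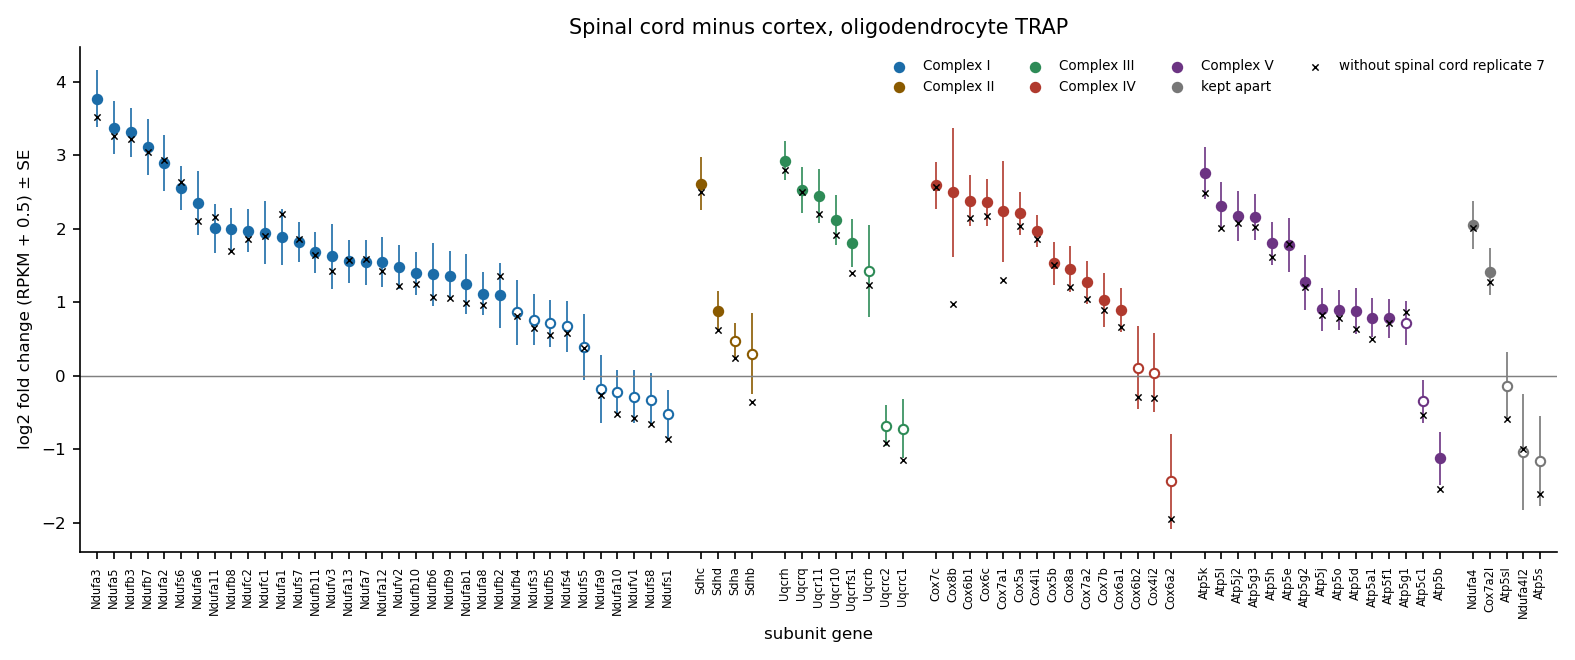
Log2 difference between spinal cord and cortex TRAP for the tested subunit genes on the x axis, grouped by complex, with bars for the standard error; filled points passed the test, open points did not, and crosses give the value without spinal cord replicate 7. Most genes lie above 0, Ndufs1, Ndufs8 and Ndufv1 of the complex I core lie below it without passing the test, and Atp5b is the 1 filled point below it.

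In complex II, succinate dehydrogenase, 2 of 4 genes were higher than in cortex, and Sdhc had the larger difference. Sdhc, an anchor, ranged from 31.3 to 179 RPKM in cortex (median 69.6 RPKM) and read 438, 605, 406, 611 and 270 RPKM in spinal cord. The groups did not overlap, and the log2 difference was 2.61 ± 0.36 (adjusted p = 1.7e-06). Sdhd, the other anchor, differed by 0.88 ± 0.27 (adjusted p = 0.00932) with overlapping groups, and by 0.62 without replicate 7. Sdha, the flavoprotein, gave 0.47 ± 0.24 and Sdhb, the iron-sulfur protein, 0.31 ± 0.55, neither past the test. With the length trend described below removed, Sdha passed it (1.04, adjusted p = 0.00245) and Sdhd did not (0.58, adjusted p = 0.0846). Sdhb was also the most uneven, at 64.5, 4.43, 43.5, 277 and 40.8 RPKM in spinal cord. The ratio of Sdhc to Sdha was 1.89 ± 0.81 (SD, n = 5) in spinal cord and 0.44 ± 0.23 (n = 7) in cortex.

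In complex III, 5 of 8 genes were higher than in cortex, namely Uqcrh, Uqcrq, Uqcr10, Uqcr11 and Uqcrfs1. Uqcrh, the hinge subunit near cytochrome c1 (chromosome 4, 116066965 to 116075071, minus strand), ranged from 115 to 321 RPKM in cortex (median 131 RPKM). It read 982, 1373, 1047, 1627 and 920 RPKM in spinal cord, with no overlap and a log2 difference of 2.93 ± 0.27 (adjusted p = 1.9e-09). The Rieske iron-sulfur protein Uqcrfs1 was at 1.80 ± 0.33, with 469 RPKM in replicate 7 and 91.1 to 158 RPKM in the other 4. The core proteins Uqcrc1 and Uqcrc2 had the opposite sign. Uqcrc1 ranged from 46.9 to 79.0 RPKM in cortex and read 47.8, 7.56, 29.2, 112 and 40.1 RPKM in spinal cord (log2 difference -0.72 ± 0.40, adjusted p = 0.149). Uqcrc2 ranged from 70.5 to 181 RPKM and read 70.0, 65.9, 50.3, 124 and 34.6 RPKM (-0.67 ± 0.28, adjusted p = 0.0513). In both genes replicate 7 was the highest spinal cord library, and without it both were called lower (-1.14 with adjusted p = 0.0141, and -0.92 with adjusted p = 0.00748). Uqcrc2 was also lower in spinal cord than in cerebellum (-0.99 ± 0.29, adjusted p = 0.0144), and did not pass with the length trend described below removed (-0.66, adjusted p = 0.14).

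In complex IV, cytochrome c oxidase, 12 of 15 genes tested were higher than in cortex and none lower, and without replicate 7 the counts were 8 and 1. Ndufa4, kept apart and also called higher, is not in these counts or in the complex IV sums. Cox4i1, the common isoform of subunit 4 (chromosome 8, 120668222 to 120674207, plus strand), ranged from 162 to 374 RPKM in cortex (median 236 RPKM) and read 851, 982, 738, 1288 and 879 RPKM in spinal cord. No cortex library reached the lowest spinal cord one, and the log2 difference was 1.97 ± 0.22 (adjusted p = 5.29e-08). Cox7c (2.59 ± 0.32), Cox6b1 (2.39 ± 0.35), Cox6c (2.36 ± 0.32) and Cox5a (2.21 ± 0.29) had larger log2 differences. Cox6a1 gave 0.89 ± 0.30 (adjusted p = 0.017), and 0.67 with adjusted p = 0.0712 without replicate 7.

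Cox8b and Cox7a1, heart and muscle isoforms of complex IV, were highest in the library with fat genes and low in the other TRAP libraries. Cox8b was listed at 0 in all 7 cortex libraries and read 0, 0.558, 3.06, 191 and 0 RPKM in spinal cord. Cox7a1 was at most 0.684 RPKM in cortex and read 0, 4.88, 3.44, 43.4 and 0.403 RPKM in spinal cord. Replicates 4 and 5, at 4.88 and 3.44 RPKM, also had the highest skeletal muscle marker sums in TRAP (19.8 and 21.9 RPKM). The part of muscle RNA in these values was not tested. Both genes are known also from brown fat, and they passed the test with replicate 7 (adjusted p = 0.0219 and 0.00961) and not without it (0.1 and 0.0528). They rested on 131 and 34 reads there. Replicate 7 is thus the library in which Cox8b made 16.9% of Cox8a plus Cox8b, and no other spinal cord library had more than 3.06 RPKM. Cox6a2, the muscle form of subunit 6a, ranged from 0 to 10.2 RPKM in cortex and from 0 to 4.21 RPKM in spinal cord. It was 1.5% ± 0.81 (SD, n = 7) of Cox6a1 plus Cox6a2 in cortex and 0.221% ± 0.255 (n = 5) in spinal cord. Cox4i2, the lung isoform of subunit 4, made at most 2.37% of its pair in every TRAP library.

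In complex V, 12 of 15 genes were higher than in cortex and 1 was lower. Atp5k, the e subunit of the membrane sector (chromosome 5, 108433244 to 108434448, minus strand), ranged from 18.8 to 85.8 RPKM in cortex (median 23.5 RPKM) and read 136, 195, 177, 432 and 165 RPKM in spinal cord. There was no overlap, and the log2 difference was 2.76 ± 0.35 (adjusted p = 5.46e-07; 2.48 without replicate 7). Atp5l (2.31 ± 0.33), the g subunit, and Atp5j2 (2.18 ± 0.34), the f subunit, followed. Atp5g1, Atp5g2 and Atp5g3 encode the same mature c subunit of the rotor ring. Atp5g3 ranged from 75.8 to 458 RPKM in cortex and read 498, 867, 559, 970 and 555 RPKM in spinal cord (2.16 ± 0.31, adjusted p = 3.25e-06). Atp5g2 was called at a low level (1.27), and Atp5g1 was not (0.72, adjusted p = 0.0529). Atp5g3 made up 85% ± 8.04 of the 3 in spinal cord and 70.2% ± 5.87 in cortex.

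Atp5b was the 1 complex V gene called lower than in cortex. It encodes the beta subunit, which forms ATP (chromosome 10, 128083273 to 128090391, plus strand). It was at 606, 899 and 1313 RPKM at the lowest, median and highest cortex library, and at 272, 446, 317, 1392 and 260 RPKM in spinal cord. All spinal cord libraries but replicate 7 lay below every cortex library. The log2 difference was -1.12 ± 0.36 (adjusted p = 0.0136) and -1.54 ± 0.32 without replicate 7 (adjusted p = 3.21e-04). Atp5b was also lower in spinal cord than in white matter (667 to 1062 RPKM, log2 difference -1.11 ± 0.37) and cerebellum (425 to 2396 RPKM, -1.64 ± 0.37). Its partner Atp5a1, the alpha subunit, ranged from 164 to 367 RPKM in cortex and read 322, 454, 262, 904 and 316 RPKM in spinal cord (0.79 ± 0.27, adjusted p = 0.018; 0.50 and adjusted p = 0.0958 without replicate 7). Atp5c1, the gamma subunit of the central stalk, was lower than in cerebellum (-0.95 ± 0.30, adjusted p = 0.0217).

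Alpha and beta subunits stand in equal number in the enzyme. The ratio of Atp5b to Atp5a1 RPKM was 4.14 ± 1.14 (SD, n = 7) in cortex TRAP, 3.71 ± 0.94 (n = 6) in white matter and 4.26 ± 1.29 (n = 6) in cerebellum. It was 1.08 ± 0.30 (n = 5) in spinal cord, where it ranged from 0.824 to 1.54 and was highest in replicate 7. The spinal cord range lay below the lowest library of every other region, which was cortex replicate 7 at 1.83. In bulk cortex the group means were 1.19 to 1.29. The TRAP and bulk tables were deposited separately. They are taken here as made with different library kits, which the labels do not assign to libraries. These levels are thus set side by side, and the kit and the RNA fraction cannot be told apart.

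**Figure D3:**
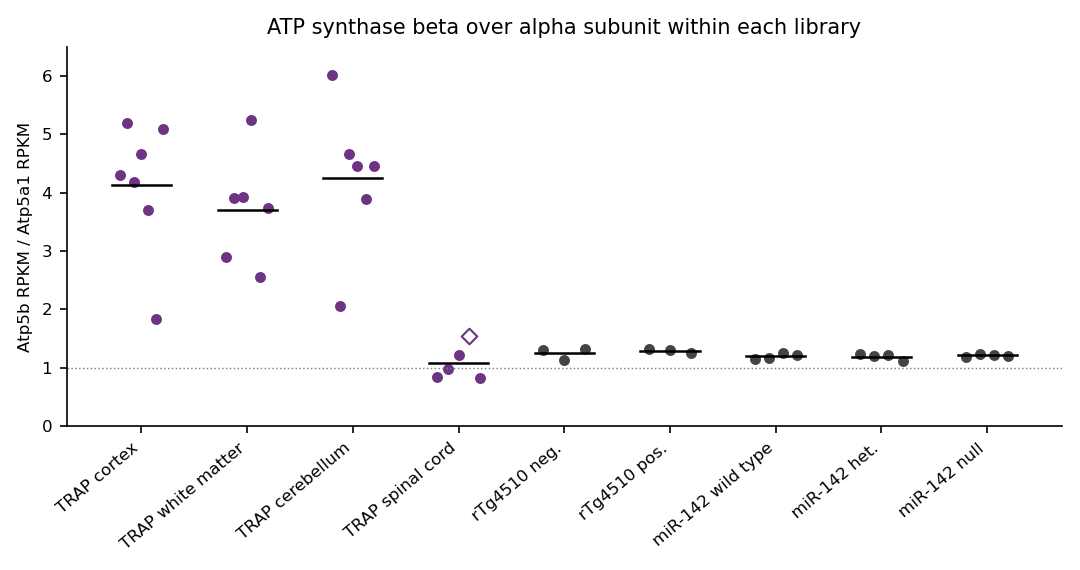
Ratio of Atp5b to Atp5a1 RPKM in each library by group; points are libraries, horizontal lines the group means, and the open diamond is spinal cord replicate 7. The spinal cord ratios of 0.824 to 1.54 lie below those of the other TRAP regions and near the bulk means of 1.19 to 1.29.

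Other ratios also differed between the TRAP and bulk tables. Uqcrb, a small complex III subunit, had a mean ratio to Uqcrq of 0.10 to 0.26 in the TRAP groups and 2.02 to 2.46 in the bulk groups. Among the c subunit genes, Atp5g2 made 1.49% to 2.67% in TRAP and 8.36% to 11.5% in bulk. Processed pseudogenes named for Uqcrh, Atp5k, Atp5l, Atp5c1, Ndufb1 and Ndufab1 are annotated in GENCODE, and how reads shared with them were counted is not given in the sources used here, so the levels of these genes are uncertain.

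The subunit genes that differed most have short coding sequences. Of the 60 with a coding length under 600 nt, 50 were higher in spinal cord than in cortex (83.3%), against 36.7% of all genes of that length. Of the 23 at least 600 nt long, 8 were higher and 1 lower, against 13.3% and 29.6% of all such genes. Without replicate 7 the counts were 45 of 60 (35.2% of all short genes) for the short genes, and 7 higher and 5 lower for the long ones. Across the 83 genes Spearman's rho between coding length and log2 difference was -0.58, a description over genes that share the same libraries. The gap between short and long genes differed between libraries over the whole table. The mean log2 level of all short genes exceeded that of all long ones by 1.32 to 1.61 in spinal cord libraries, 0.41 to 1.12 in cortex TRAP and 0.99 to 1.2 in bulk tissue.

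With the trend of log2 level on coding length removed within each library, 52 subunit genes were higher than in cortex and 1 lower (median 1.05). Of all genes, 22.0% were higher and 17.4% lower. The lower gene was Cox6a2, a gene of low level (-2.01, adjusted p = 0.00693). Sdhd, Ndufb2, Atp5d, Atp5j, Cox6a1, Cox7a1, Cox7b and Cox8b, called higher before, did not pass. Against white matter the counts were 42 and 1 (14.4% and 11.3% of all genes), and against cerebellum 36 and 2 (10.7% and 9.38%). Ndufa3 (3.12) and Uqcrh (2.30) stayed past the test. Ndufs3 (0.82) and Sdha (1.04), not called against cortex before, also passed it. Atp5b did not pass it against cortex (-0.61, adjusted p = 0.193) or white matter (-0.67, adjusted p = 0.203) and did against cerebellum (-1.27, adjusted p = 0.0185). With both the trend and replicate 7 removed, a setting chosen after seeing the data, 47 were higher and 3 lower than in cortex, Atp5b among the latter (-1.02, adjusted p = 0.0159), and Uqcrc1, Uqcrc2 and Ndufs1 did not pass. The part of coding length in the remaining differences was not tested.

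**Figure D4:**
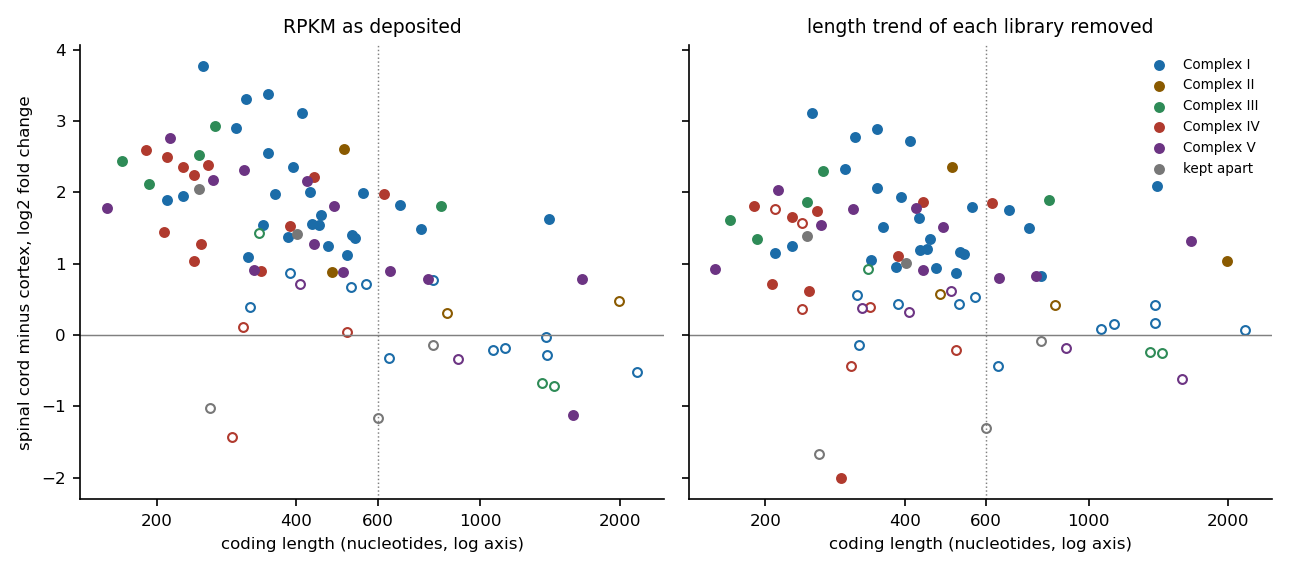
Log2 difference between spinal cord and cortex TRAP against coding length (nt, log axis) for the 83 subunit genes, as deposited on the left and with the length trend removed on the right; the dotted line marks 600 nt. The short genes lie highest in both panels, with medians of 1.73 and 1.2 against -0.03 and 0.42 for the long ones.

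Other genes of mitochondrial function were taken from lists drawn up by function, and compared between spinal cord and cortex in the same fit. Of all genes tested there, 16.2% were higher and 27.5% lower. Of 49 assembly factors, which build the complexes, 11 were higher and 5 lower (median -0.18). Cox17, a copper chaperone of complex IV, was among the higher ones at 2.76 ± 0.34. Of 77 mitochondrial ribosomal proteins, 25 were higher and 5 lower (median 0.56), with Mrps12 at 2.34 ± 0.34. Of 18 genes of the TCA cycle, 2 were higher and 2 lower, with Idh2 at -1.79 ± 0.46. Of 22 regulators and carriers, 3 were higher and 3 lower, and Ppargc1a, the coactivator of mitochondrial biogenesis, was at -1.31 ± 0.36. Of 17 glycolytic genes 1 was higher and 5 lower. Without replicate 7 the counts higher and lower were 11 and 8 (assembly), 26 and 6 (mitochondrial ribosome), 0 and 4 (TCA cycle) and 0 and 3 (regulators and carriers). In that setting 43.4% of all genes were called. Cytosolic ribosomal proteins, which are also short and abundant, gave 68 of 82 higher and none lower (median 1.58), and without replicate 7 66 of 82 (median 1.40). Of 10 oligodendrocyte markers 9 were higher (median 2.22), and of 8 neuronal markers 2 were higher and 2 lower. In these purified RNAs, more RNA from a cell type and more RNA of the gene per cell cannot be told apart, and the part of these markers in the subunit result was not tested.

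Promoters were searched for 3 motifs of factors known to act on respiratory genes. RefSeq promoter windows (250 bases before to 50 after the start, GRCm38.p6) were found for 67 of the 85 genes. The NRF-1 motif, a run of 10 letters that reads the same on both strands and is in capitals below, was in 5 of 67 (7.46%) and in 1.72% of 14206 promoters. The YY1 motif, the 10 capitals in the line for Ndufs7 below and searched on either strand, was also in 5 (7.46%, against 1.65%), and the ETS motif ACCGGAAG in 6 (8.96%, against 3.89%). The 5 NRF-1 matches and 1 for YY1 are shown: the first are all that were found, and Ndufs7 had the largest difference of the complex I core. Capitals mark the motif, each run is written 5′ to 3′ on the strand of the gene, and the windows are Atp5k at chr5:108434430-108434459 (minus strand), Cox6a1 at chr5:115349101-115349130 (minus), Atp5g2 at chr15:102671070-102671099 (minus), Ndufa11 at chr17:56717692-56717721 (plus), Uqcrc1 at chr9:108936668-108936697 (plus, after the start) and Ndufs7 at chr10:80249463-80249492 (plus, after the start).
Atp5k: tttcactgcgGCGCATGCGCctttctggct
Cox6a1: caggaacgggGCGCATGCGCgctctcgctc
Atp5g2: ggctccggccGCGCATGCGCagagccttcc
Ndufa11: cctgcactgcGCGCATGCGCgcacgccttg
Uqcrc1: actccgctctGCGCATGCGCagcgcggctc
Ndufs7: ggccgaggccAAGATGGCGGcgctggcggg
The spinal cord minus cortex log2 differences of these genes were 2.76, 0.89, 1.27, 2.01, -0.72 and 1.82 in this order, that of Uqcrc1 not past the test. A match describes the letters in the window only.

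The other regions differed less. Between cerebellum and cortex, 15 subunit genes were higher in cerebellum and none lower (median log2 difference 0.56), where 24.6% of all genes were called, 11.5% higher. The 15 included 9 of complex I, 2 of complex III, 1 of complex IV and 3 of complex V. Ndufa3 rose from 19.1 ± 16.4 to 47.1 ± 19.6 RPKM (1.40 ± 0.37, adjusted p = 0.00599), and Uqcrh from 163 ± 73.9 to 319 ± 113 RPKM (1 ± 0.25, adjusted p = 0.00415), both with overlapping ranges. Ndufv3, a supernumerary subunit, was the 1 gene whose ranges did not overlap (1.21 ± 0.42, adjusted p = 0.0356), where 4.63% of all genes were higher without overlap. The count rested on single libraries: it was 35 without cortex replicate 7 and 26 without cerebellum replicate 2, the latter with the lowest oligodendrocyte marker sum of its region. It was 9, 6 and 8 without cortex replicates 2, 5 and 8, and 8, 8 and 7 without cerebellum replicates 5, 6 and 7. With the length trend removed it was 9.

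Between white matter and cortex only Ndufa5 was called (5.39% of all genes, 3.28% higher). It ranged from 24.2 to 86.0 RPKM in white matter (median 31.4 RPKM) and from 8.37 to 39.9 RPKM in cortex (median 17.4 RPKM), with a log2 difference of 1.2 ± 0.35 (adjusted p = 0.0389) and overlapping groups. No subunit gene was called with the length trend removed, or without cortex replicate 2, 3, 5, 6 or 8 or white matter replicate 3. Without cortex replicate 7, 9 were called, without spinal cord replicate 7 or cerebellum replicate 2, 3, and without cortex replicate 4, spinal cord replicate 4, or white matter replicate 5 or 7, 2. Between cerebellum and white matter limma called none (9.76% of all genes), as did voom on the recovered reads. At an unadjusted p under 0.05 there were 3 (19.9% of all genes), Uqcrc2 (0.69), Ndufc2 (0.60) and Ndufa4l2 (-1.91). Without white matter replicate 2, 1 was called lower.

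In frontal cortex of rTg4510 mice 1 of the 84 subunit genes tested was called. The summed level was 18239, 18272 and 18462 RPKM in the negative libraries and 19105, 19569 and 18338 RPKM in the positive ones, so the ranges overlapped. The gene was Ndufc2, a supernumerary subunit of the membrane arm of complex I, against 7.42% of all genes (5.77% higher). It read 95.1, 109 and 106 RPKM in negative and 136, 126 and 130 RPKM in positive libraries, a log2 difference of 0.34 ± 0.08 (adjusted p = 0.0489). The groups did not overlap, which held for 29 of 84 subunit genes (27 higher) and for 31.6% of all genes (23.3% higher). It was not called without negative replicate 1 or 3 or positive replicate 2, and without positive replicate 1 a second gene was called. The median log2 difference was 0.10, beside 0.09 over all genes. It was 0.00 under median-of-ratios scaling and -0.09 with the length trend removed, where the 1 gene called was Ndufb9, lower (-0.35, adjusted p = 0.0427).

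At an unadjusted p under 0.05, 17 subunit genes were higher and none lower, against 19.5% of all genes higher. By complex, 31 of 36 complex I genes and 10 of 16 complex IV genes had a positive difference, while the median over all genes was positive too. With the length trend removed the medians were -0.12 for the short and -0.03 for the long subunit genes. Cox6a2 read 3.76, 4.72 and 6.31 RPKM in negative and 12.2, 12.7 and 6.19 RPKM in positive libraries (0.96 ± 0.29, adjusted p = 0.0872), and 1 positive library lay within the negative range. No gene of the TCA cycle, assembly factor, mitochondrial ribosome or regulator lists was called. Among glycolytic genes Hk2 was called (0.93 ± 0.20, adjusted p = 0.0337). Beside this, microglial markers summed to 203 to 242 RPKM in negative and 444 to 571 RPKM in positive libraries (4 of 6 higher), and astrocyte markers to 2845 to 2992 and 3862 to 4095 RPKM (3 of 6 higher). Excitatory forebrain markers summed to 1280 to 1652 and 742 to 1137 RPKM (1 of 4 lower). Their part in the subunit levels was not tested, and in bulk tissue fewer cells of a type and less RNA per cell cannot be told apart.

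**Figure D5:**
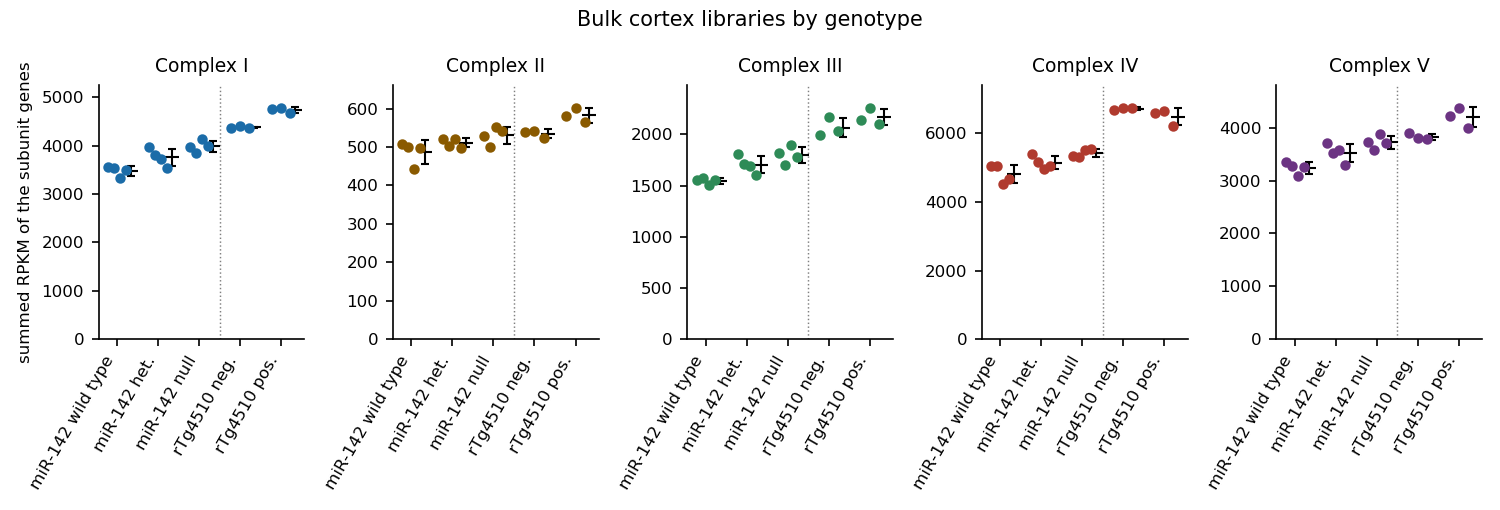
Summed RPKM of each complex in the bulk cortex libraries, with points for libraries, bars for the mean ± SD, and a dotted line between the miR-142 and rTg4510 tables, which were deposited separately. The null libraries lie above the wild type ones for complexes I, III, IV and V. For complex II the 2 groups overlap (499 to 552 RPKM in null and 443 to 508 RPKM in wild type). Sums over all subunit genes were 15831 to 16946 RPKM in null against 13619 to 14869 RPKM in wild type.

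In prefrontal cortex of miR-142 mice the subunit genes were slightly higher in null than in wild type libraries. The summed level was 16347, 15831, 16946 and 16524 RPKM in null, 16344, 15556, 15337 and 14800 RPKM in heterozygous and 14869, 14766, 13619 and 14250 RPKM in wild type libraries. Null and wild type did not overlap, and heterozygous libraries, whose title codes are described below, spanned the gap. Of 84 subunit genes 5 were called higher in null than in wild type and none lower, where 0.468% of all genes were called (0.209% higher). All 5 had an adjusted p of 0.0493, just under the threshold.

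Uqcrb, a small subunit of complex III, read 298, 258, 288 and 265 RPKM in null, 270, 253, 257 and 220 RPKM in heterozygous and 217, 210, 201 and 215 RPKM in wild type libraries. The log2 difference between null and wild type was 0.39 ± 0.07. Ndufv2, a core subunit of complex I, read 160, 147, 161 and 155 RPKM in null and 130, 122, 120 and 124 RPKM in wild type (0.33 ± 0.06). In both genes every null library was above every wild type one. Cox7b, of complex IV, read 504, 514, 501 and 522 RPKM in null and 445, 414, 363 and 412 RPKM in wild type (0.32 ± 0.06). Atp5f1, the b subunit of the ATP synthase stalk, read 295, 276, 298 and 284 RPKM in null and 248, 240, 208 and 220 RPKM in wild type (0.33 ± 0.07). Ndufa6, of complex I, read 162, 147, 157 and 147 RPKM in null and 132, 132, 119 and 117 RPKM in wild type (0.30 ± 0.06). The largest of these differences was 1.31-fold and none of the 5 genes had overlapping groups.

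The calls rested on the threshold. They numbered 26, 27 and 29 without null replicate 2, heterozygous replicate 4 and wild type replicate 1, and 0 without any 1 of the other 9 libraries. No subunit gene was called under median-of-ratios scaling or with the length trend removed, where no gene at all was called. The log2 difference was positive for 82 of the 84 genes, with a median of 0.19 beside 0.01 over all genes, and the median was 0.12 with the length trend removed. At an unadjusted p under 0.05, 60 were higher, against 11.8% of all genes. For 41 the null libraries lay above the wild type ones without overlap, against 6.43% of all genes. The positive counts were 36 of 36 in complex I, 4 of 4 in complex II, 8 of 8 in complex III, 15 of 16 in complex IV and 15 of 15 in complex V.

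Heterozygous and wild type libraries gave no call by limma or by voom, as was the case for all genes (0% called), with 27 subunit genes higher at an unadjusted p under 0.05 (3.34% of all genes) and a median of 0.11. Null and heterozygous libraries gave none either (0% called), with 9 at an unadjusted p under 0.05 (all higher, against 1.56% of all genes) and a median of 0.08. Among the other lists, null against wild type called 2 of 49 assembly factors (Pet100 and Cox17, both linked to complex IV), 1 of 77 mitochondrial ribosomal proteins (Mrpl42) and no gene of the TCA cycle, where 12 of 18 were at an unadjusted p under 0.05. Endothelial and mural markers summed to 111 to 144 RPKM in null and 153 to 180 RPKM in wild type libraries (1 of 6 lower), and all 10 oligodendrocyte markers had a positive difference (median 0.28, none called). Their part in the result was not tested. The title codes of these libraries hold a letter and a number. The letters F and M occur in null and in wild type. With the letter as a covariate Uqcrb, Ndufv2, Cox7b and Ndufa6 stayed past the test (adjusted p = 0.0495) and Atp5f1 did not (adjusted p = 0.0513). Null and wild type libraries share no number, so the genotype and whatever the number stands for cannot be told apart.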

How the data were processed

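The data were 3 deposited tables of RPKM values for mouse RNA, 1 each for TRAP, rTg4510 and miR-142 libraries. Per the submitters' processing notes the authors used STAR, HTSeq and mm10 (versions not stated there). Library kits per the labels' protocols were NuGEN with RiboZero, taken here as TRAP, and TruSeq Stranded with RiboZero Gold, taken as bulk. Reads and lengths were recovered from the steps of the RPKM values. All 18782 genes above 0 gave whole reads within 0.005, and 93.2% of lengths were multiples of 3. Depth sets the counting precision, so values of low genes in the shallowest libraries are the least precise.

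Groups followed the labels. Genes were kept where as many libraries as the smallest group has (5, 3 and 4 for TRAP, rTg4510 and miR-142) reached 0.5 RPKM, and fitted with limma 3.58.1 (trend, robust; R 4.3.3) on log2(RPKM + 0.5), so fold changes are on that scale and understate low genes. P-values were adjusted over all 13982, 13972 and 13879 genes tested, with two-sided tests and a threshold of 0.05. Ratios and sums were computed with Python 3.11.15 and pandas 2.3.3. Gene positions came from GENCODE vM21 (84 of 85 genes matched) and promoters from RefSeq. The scripts were tested on simulated data. The members and lists were chosen with earlier results of these data known. Named genes were the isoform pairs, the Sdh and core complex I genes, Atp5a1, Atp5b, the 2 largest called differences each way per complex, and up to 2 per list by adjusted p. A few more were named after their values were seen, among them Uqcrc1, Uqcrc2, Uqcrfs1, Uqcrb, Cox5a, Ndufa2, Ndufs5, Ndufs6 and the fat cell genes. Alternatives were the pseudocount, the filter, scaling, a length correction, voom, a replicate block and leaving out each library. The values of 1 subunit gene are not reported here by themselves.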

Additional observations from a re-analysis of the deposited data

Results flagged for a closer look

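Within each group of 4 to 10 libraries, a single library far from the others was looked for. This was done for the summed level of each complex and for a set of subunit genes, some of them named after their values were seen. Of 160 tests 34 gave such a library. The tests share libraries and the sums hold the single genes, so this count cannot be set against a nominal rate of 1 in 20. Cortex replicate 7 was the highest cortex library in 15 of them. It stood out for the summed RPKM of complex I (3039), complex III (1430), complex IV (2741) and all subunit genes (12342). It also stood out for Ndufs7 (66.9), Ndufa3 (55.8), Ndufa5 (39.9), Sdhc (179), Uqcrh (321), Uqcrb (43.6), Atp5g3 (458), Atp5k (85.8), Ndufa6 (72.3), Cox7b (312) and Atp5f1 (259 RPKM). Leaving it out raised the number of subunit genes called higher in spinal cord than in cortex from 58 to 64.

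Spinal cord replicate 7, the library with fat cell genes, was the highest of its group in 9. These were the summed RPKM of complex I (6126), complex III (4741), complex IV (6925), complex V (6277) and all subunit genes (27184), and Cox8b (191), Cox7a1 (43.4), Atp5b (1392) and Atp5k (432 RPKM).

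White matter replicate 2 was the highest for complex IV (2633), Cox8b (1.74), Atp5g3 (338) and Cox7b (230.4 RPKM). Spinal cord replicate 5 was the highest for Ndufs7 (181) and Ndufa4l2 (0.352 RPKM), and cortex replicate 4 for Ndufa4l2 (12.6 RPKM). The lowest were cerebellum replicate 3 for Atp5f1 (115 RPKM), null replicate 1 for Ndufs7 (66.8 RPKM) and wild type replicate 3 for complex II (443 RPKM).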

How the results depend on the processing

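The counts of subunit genes called between spinal cord and each other region, and over all 4 regions, stayed within 1.5 times under every setting tried. Leaving out 1 library in turn gave 56 to 65 against cortex, 39 to 48 against white matter, 34 to 42 against cerebellum and 48 to 62 over the 4 regions. The other counts moved. White matter minus cortex (1) became 0 with no filter, voom or the length trend removed, 2 under median-of-ratios scaling, 4 under quantile normalization or with only the 2 regions fitted, 5 without spinal cord replicates 4 and 7 together, and 2 with the length trend removed and spinal cord replicate 7 left out, a setting chosen after seeing the data. Cerebellum minus cortex (15) became 9 with the length trend removed and 24 with only the 2 regions. The rTg4510 count (1) became 0 with no filter, median-of-ratios scaling, quantile normalization or voom, and 1 in the lower direction with the length trend removed. Null minus wild type (5) became 0 with a pseudocount of 1, no filter, median-of-ratios scaling or the length trend removed, and 12 with a filter of 2 RPKM. Leaving out 1 library gave 0 to 9 for white matter minus cortex, 6 to 35 for cerebellum minus cortex, 0 to 1 for cerebellum minus white matter, 0 to 2 for rTg4510, 0 to 29 for null minus wild type, and 0 in the other miR-142 comparisons. The cause of these changes was not tested. TRAP titles hold a replicate number shared across regions and a second number set by region, which may mark a common source. The labels do not say so, and the main fit did not use it as a pairing. Cortex and spinal cord replicate 7 share such a number. Of 31 same-numbered pairs, 13 correlated over 0.1. Their median r was 0.06 against -0.02 over 184 other pairs, and 11 of 24 libraries were closest to their own number. These correlations cannot decide the pairing, since a shared source need not give a high r. With the replicate block the counts were 51 over the 4 regions, 58 (spinal cord minus cortex), 43 (minus white matter), 36 (minus cerebellum), 11 (cerebellum minus cortex), 2 (white matter minus cortex, also with the length trend removed) and 0 (cerebellum minus white matter). Low depth limits most the genes near 0, such as Cox8b, Cox7a1 and Ndufa4l2.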
